A study of Mus musculus with 14 samples.

Results

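Among the 14 mouse livers of a study of clothes that compress the trunk, 3 of the 7 livers of the no-compression group carried an expression pattern apart from that of all other arrays, and what set them apart was described gene by gene. These were no-compression replicates 3, 6 and 7, called the divergent livers, and they were set against no-compression replicates 1, 2, 4 and 5, called the typical livers. Both sets had the same treatment: male C57BL/6N mice, 10 weeks old, that wore the adjustable clothes with no load, with the same time of 8 h as the compression group. The 7 livers of the compression group, from mice of the same strain, sex and age whose trunk was loaded for 8 h by the clothes, served only as a range of values. RNA of a liver went on 1 array of the type Clariom S for mouse, and expression is given as the deposited log2 value of a probe set, the group of probes that reads 1 gene. Nothing in the labels separates the divergent from the typical livers, and neither food intake nor body weight is given there for single mice. The arrays were chosen by the same expression values that are described below. All differences are therefore sizes and gene identities, with no test and no error rate.

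The liver answers inflammation by the acute phase response, in which hepatocytes, driven by cytokines such as interleukin 6 and interleukin 1, secrete serum amyloid A, haptoglobin, hepcidin and other plasma proteins. In male mice the pulses of growth hormone keep a set of genes high through STAT5b, while another set stays higher in females. Carbohydrate reaching the liver is taken up, stored as glycogen and turned into fatty acids by enzymes under the transcription factor ChREBP. Fasting turns the liver toward fatty acid oxidation under PPARA and toward glucose production. These statements are background and are not causes of the values given here.

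On the leading principal component of 1238 probe sets, those whose SD over the 14 arrays exceeded 0.01, called probe sets with spread, the divergent livers 3, 6 and 7 stood at 9.57, 16.7 and 9.45. The typical livers 1, 2, 4 and 5 stood at -6.73, -4.89, -3.34 and -3.72, and the compression livers between -4.35 and 2.25. This component held 57.1% of the variance, and these positions chose the arrays. Compression replicate 4, at 2.25, was the array just outside the divergent set, and no-compression replicate 7, at 9.45, the one just inside it. Replicate 6 lay farther out than the other divergent livers. The 2nd component, with 11.2% of the variance, placed the divergent livers at 1.09, 1.99 and -4.55, within the range of the other arrays. Array medians over all 22206 probe sets were between 6.5131 and 6.5155 in the divergent livers, between 6.5116 and 6.5123 in the typical livers and between 6.5115 and 6.5131 in the compression livers. SDs over the 14 arrays had a median of 1.04e-05, because the summary of the probes leaves most probe sets almost constant, so that a gene without spread carries no information on a difference. Of 6923 control rows, 294 had an SD above 0.01. The number of arrays limits the precision of every value, and read depth does not apply.

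**Figure D1:**
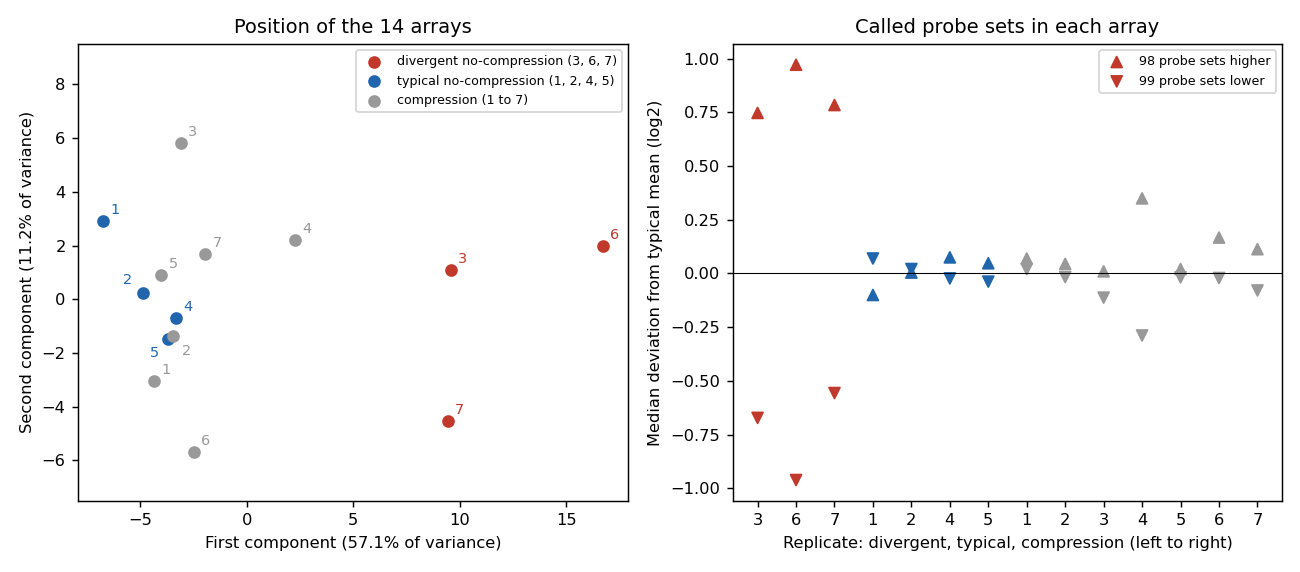
Left, position of the 14 arrays on the first (57.1% of variance) and second (11.2%) component of the 1238 probe sets with spread, with replicate numbers. Right, median log2 deviation from the mean of the 4 typical arrays over the 98 probe sets higher (upward triangles) and the 99 lower (downward triangles) in the divergent livers, per array. Replicate 6 stands farthest out (0.97 and -0.96), and of the compression arrays replicate 4 lies nearest to the divergent livers (0.35 and -0.29).

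A probe set was called higher when its mean log2 difference, divergent minus typical, was at least 0.5 (1.41-fold) and all 3 divergent values lay above all 4 typical values, and called lower in the mirrored case. By this rule 98 probe sets were higher and 99 lower in the divergent livers, 0.441% and 0.446% of the 22206 probe sets and 7.92% and 8.00% of the 1238 with spread, to which all of them belonged. With the limit on size left aside, 324 of the 1238 lay without overlap on the higher side and 368 on the lower side. Lack of overlap alone, given below for single genes, is thus common among them. Counts of called members of a list stand beside the shares of 7.92% and 8.00%. Since the arrays were chosen on these values, nothing is read from these shares and counts. The median difference was 0.83 over the higher and -0.74 over the lower probe sets, and -0.01 over all with spread. At least 1, a doubling, was reached by 33 higher probe sets, and 22 lower ones differed by -1 or less. Just inside the limit were Tgm1 (0.51), which was not called without replicate 6 (0.48), 1 (0.46) or 2 (0.47), and Slco1b2 (-0.50), and just outside it Itih4 (0.498) and Aldh1a1 (-0.497). Over the called probe sets the divergent livers varied more among themselves than the typical livers. The median SD was 0.20 against 0.15 over the higher probe sets and 0.25 against 0.12 over the lower ones. In the compression livers it was 0.21 and 0.16. These probe sets were called on the same values, so nothing is read from the SDs about other probe sets.

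The compression arrays gave a range against which the called probe sets were placed. All 3 divergent values lay above the highest compression value for 71 of the 98 higher probe sets and below the lowest one for 67 of the 99 lower ones. Over all probe sets with spread, the shares with all 3 divergent values above or below the compression range were 16.5% and 19.4%, and as these values entered the component, nothing is read from them either. All 4 typical values were inside the compression range for 37 of the higher and 45 of the lower probe sets. In 59 of the higher probe sets at least 1 typical value lay below that range, and in 48 of the lower ones at least 1 lay above it. The mean of the compression livers differed from that of the typical livers by a median of 0.13 over the higher and -0.08 over the lower probe sets.

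**Figure D2:**
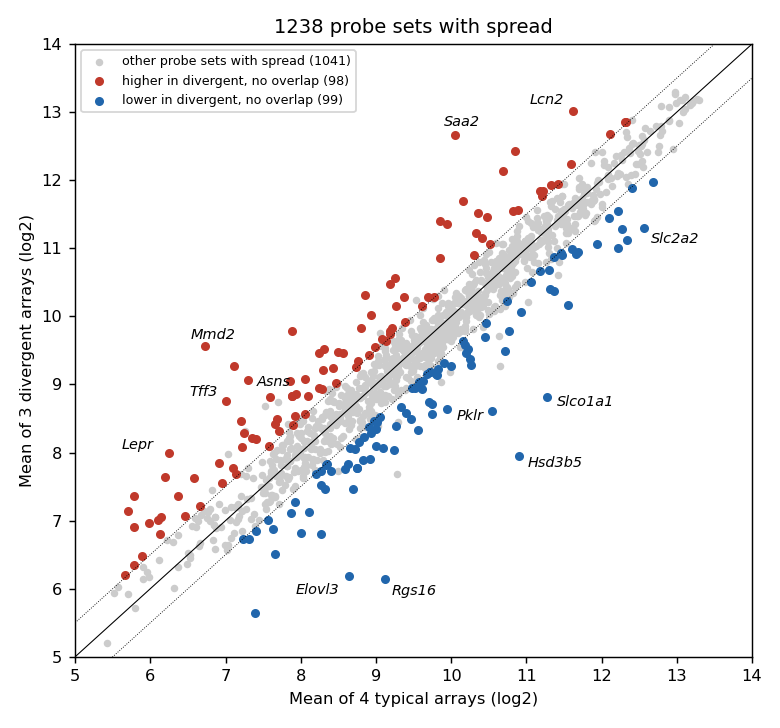
Mean log2 value of the 3 divergent arrays (vertical) against that of the 4 typical arrays (horizontal) for the 1238 probe sets with spread; the solid line marks equality and the dotted lines a difference of 0.5 in either direction. The 98 red points are higher and the 99 blue points lower in the divergent livers with no overlap, with Mmd2 (2.85) and Rgs16 (-2.97) at the ends.

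Acute phase genes were the largest group of called members among the gene lists. Of 33 measured genes 29 had spread, 13 were called higher and 0 lower, and 28 of the 29 differences were above 0, with a median of 0.44 against -0.01 over all probe sets with spread. In the following, divergent values are given in the order of replicates 3, 6 and 7 and typical values in the order of replicates 1, 2, 4 and 5. Saa2, an acute phase serum amyloid A that travels on high-density lipoprotein, was at 12.58, 13.05 and 12.37 in the divergent livers, against 8.53, 10.37, 10.66 and 10.66 in the typical livers. Its mean of 12.67 ± 0.35 (SD, n = 3) in the divergent livers and 10.05 ± 1.03 (SD, n = 4) in the typical livers differed by 2.61. All divergent values lay above all typical ones, and the compression livers, at 10.68 to 12.46, lay above the typical and reached into the divergent values. Saa1, its close paralog, was at 11.60, 12.02 and 11.47 against 9.02, 10.41, 10.62 and 10.57, a difference of 1.54. Its compression values, 10.72 to 11.53, likewise lay above the typical and reached into the divergent values. In both genes typical replicate 1 was far below the other typical livers. Since the paralogs are almost identical in sequence, their probes may share transcripts and the values are not independent.

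Lcn2, which withholds iron from bacteria by binding their siderophores, was at 12.87, 13.24 and 12.94 in the divergent livers, against 10.55, 11.97, 12.004 and 11.97 in the typical livers, where replicate 1 was again apart from the rest. The compression livers, at 12.16 to 12.80, lay above every typical and below every divergent liver. The difference between divergent and typical livers was 1.40. With replicate 1 left out of the typical livers, it was 1.04 for Lcn2, 2.10 for Saa2 and 1.17 for Saa1. Orm2, an alpha-1-acid glycoprotein, was at 12.06, 12.76 and 12.49 against 10.48, 10.66, 11.12 and 11.11 (1.59), and Apcs, the serum amyloid P component, at 11.13, 11.96 and 11.09 against 9.43, 9.67, 10.12 and 10.20 (1.54). In both the divergent livers were above every typical and every compression liver, and replicate 6 had the highest value. Saa3 (1.20), the metalloreductase Steap4 (1.01), the interleukin 1 receptor antagonist Il1rn (1.001), the inter-alpha-trypsin inhibitor chain Itih3 (0.65), the iron hormone genes Hamp (0.54) and Hamp2 (0.57), the lipopolysaccharide binding protein Lbp (0.56) and Orm1 (0.54) made up the other called members. Without replicate 6 Hamp (0.43), Hamp2 (0.47), Lbp (0.40) and Orm1 (0.41) were short of the limit and 9 members were called, and without typical replicate 1 Orm1 (0.47) was not. The most abundant acute phase proteins moved less on this scale: haptoglobin (Hp) was at 13.07, 13.24 and 12.97 against 12.70, 12.76, 12.84 and 12.84, and the fibrinogen chain Fgb at 12.78, 12.78 and 12.73 against 12.57, 12.54, 12.55 and 12.68. Neither Hp nor Fgb overlapped between the sets, but their differences were 0.31 and 0.18. Il6ra, the receptor chain for interleukin 6, was the 1 member with spread below 0, at 9.09, 8.95 and 9.05 against 9.52, 9.55, 9.56 and 9.40 (-0.48).

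As a list, the acute phase genes kept the divergent livers above all others. The median deviation of the 29 probe sets from the typical mean was 0.35, 0.75 and 0.28 in the divergent livers, between -0.15 and 0.07 in the typical livers and between 0.04 and 0.22 in the compression livers. Chemokines and cytokines, a list of 34 measured genes of which 7 had spread, held 3 called higher and 0 called lower: Cxcl1 (1.26), which draws neutrophils, Il1rn, and the alarmin Il33 (0.57). Cxcl1 was at 8.45, 8.64 and 8.30 in the divergent livers, against 6.82, 6.90, 7.15 and 7.93 in the typical livers, where replicate 5 was the highest. Other called genes tied to inflammatory signalling were Tifa, an adaptor that leads to activation of NF-kappaB, at 9.68, 10.35 and 9.32 against 7.72, 7.78, 7.89 and 8.15 (1.90), and Bcl3, an IkappaB family protein, at 9.29, 9.43 and 8.91 against 8.07, 8.44, 7.99 and 8.68 (0.91). Lrg1, a leucine-rich plasma glycoprotein, was at 11.69, 12.15 and 11.70 against 10.47, 11.52, 11.36 and 11.39 (0.66), with typical replicate 1 lowest by a wide margin. Without that replicate Lrg1 differed by 0.42 and was not called, and without replicate 6 neither was Il33 (0.48). In Cxcl1, Bcl3 and Lrg1, as in Saa2, the typical livers spanned a wider range than the divergent ones.

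Few markers of other cell types had spread. Since each array reads a whole piece of liver, more cells of a type and more RNA per cell cannot be told apart. Of 12 measured neutrophil markers 3 had spread and 1, Retnlg, was called higher, at 6.02, 6.60 and 6.42 against 5.72, 5.75, 5.85 and 5.83 (0.56), and was not called without replicate 6 (0.43). S100a8, a calcium-binding protein of neutrophils, was at 5.81, 6.11 and 6.18 in the divergent livers, against 5.43, 5.64, 5.68 and 5.55 in the typical livers, and S100a9, its partner, at 6.08, 6.22 and 6.23 against 5.97, 5.96, 5.997 and 6.004. Neither overlapped between the sets, and both differences (0.46 and 0.19) were below 0.5. Retnlg, S100a8 and S100a9 were dim, near the median of the negative control rows. That median was 5.815 in divergent replicate 3 and 5.814 in typical replicate 1. Csf3r, the neutrophil marker with the highest mean (6.95), had no spread. Summed on the linear scale, the neutrophil list was 812 to 864 in the divergent livers, 782 to 796 in the typical livers and 785 to 805 in the compression livers.

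Of 17 measured markers of Kupffer cells, the macrophages of the liver, 6 had spread, all 6 above 0 with a median of 0.13, and 1 was called. That was Marco, a scavenger receptor for bacteria, at 7.33, 7.81 and 8.16 in the divergent livers, against 7.16, 7.17, 7.09 and 6.99 in the typical livers (0.66), and it was not called without replicate 7 (0.47). Cd5l, a protein secreted by macrophages, was at 9.54, 9.78 and 9.83 against 9.47, 9.55, 9.47 and 9.59 (0.19) and Vsig4, a complement receptor, at 8.65, 8.68 and 8.71 against 8.67, 8.64, 8.63 and 8.68 (0.03), both with overlap. Slc40a1, the iron exporter with the highest mean of this list (10.2), and Clec4f, which defines Kupffer cells, had no spread. The linear sum of the list was 6193 to 6665 in the divergent livers, 6071 to 6225 in the typical livers and 6062 to 6347 in the compression livers. Lyve1, of sinusoidal endothelium, was at 8.43, 8.53 and 8.60 against 8.05, 8.14, 7.91 and 8.04 (0.49). Markers of cholangiocytes, T and NK cells, B and plasma cells, monocytes and dendritic cells, exocrine pancreas, muscle and mesothelium had 0 members with spread. Hepatocyte markers were high in all arrays, with Alb, the albumin gene, at a mean of 13.4, and 0 of 11 measured were called. The part of any cell type in the differences was not tested.

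Interferon-stimulated genes and antigen presentation were not higher beside the acute phase list. Of 25 measured interferon-stimulated genes 7 had spread, 0 were called higher and 1 lower, with a median of -0.09. The called gene was Irf7, a regulator of type I interferon production, at 7.93, 7.75 and 7.82 against 8.44, 8.43, 8.19 and 8.35 (-0.52), and it was not called without replicate 6 (-0.48), 1 (-0.49) or 2 (-0.49). Of 16 measured antigen presentation genes 3 had spread and 0 were called, with H2-K1, a class I heavy chain, at 11.67, 11.66 and 11.67 against 11.69, 11.71, 11.72 and 11.71 and B2m, its light chain, at 13.19, 13.16 and 13.24 against 13.28, 13.27, 13.29 and 13.25. Both were slightly below all typical values (-0.04 and -0.08).

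The named gene with the highest difference of all was Mmd2, a membrane protein of the progestin and adipoQ receptor family, at 9.45, 9.80 and 9.45 in the divergent livers, against 6.50, 6.60, 7.06 and 6.73 in the typical livers. The means of 9.57 ± 0.21 and 6.72 ± 0.25 (SD, n = 3 and 4) differed by 2.85, a 7.19-fold difference, and the compression livers reached 6.63 to 8.17. Tff3, a trefoil peptide of mucous epithelia, was at 8.97, 8.39 and 8.92 against 6.79, 7.32, 6.73 and 7.16 (1.76). Prom1, a glycoprotein of membrane protrusions, was at 7.01, 7.59 and 7.48 against 5.73, 5.80, 5.73 and 5.84 (1.58). In each of these genes the 3 divergent livers lay above every typical and every compression liver. Lepr, the leptin receptor, was at 7.67, 8.38 and 7.93 against 6.13, 5.98, 6.61 and 6.26 (1.75), and Bmper, which binds bone morphogenetic proteins, at 7.43, 8.06 and 7.43 against 6.17, 6.24, 6.28 and 6.09 (1.44). Slc22a26, of the organic anion transporter family, was at 8.66, 9.14 and 10.01 against 6.88, 6.82, 7.49 and 7.28 (2.15), and here replicate 7, not 6, was the highest. Slc3a1, the heavy subunit of the transporter of cystine and dibasic amino acids, was at 11.31, 11.69 and 11.09 against 9.67, 9.92, 10.20 and 9.98 (1.42).

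Cyp17a1, the steroid 17-alpha-hydroxylase, was at 12.05, 12.35 and 12.02 in the divergent livers, against 10.22, 10.56, 11.33 and 10.67 in the typical livers (1.44). Sult1e1, which inactivates estrogens by sulfation, was at 7.03, 7.53 and 6.86 against 5.43, 5.84, 5.81 and 5.74 (1.43). All 3 divergent values of both genes were above the compression range of 10.62 to 11.47 for Cyp17a1 and 5.63 to 6.24 for Sult1e1.

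**Figure D3:**
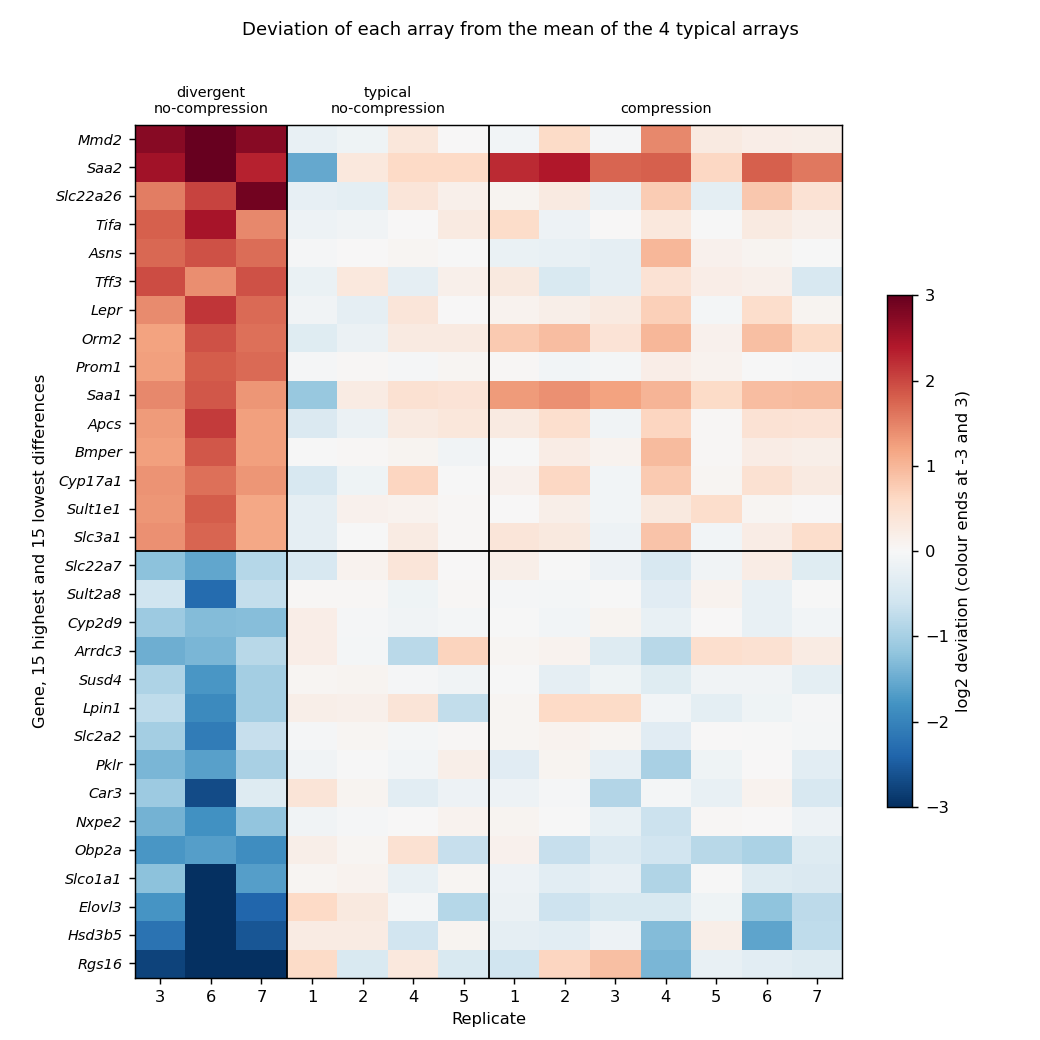
Log2 deviation of each array from the mean of the 4 typical arrays for the 15 named genes with the highest and the 15 with the lowest difference, by array; colours end at -3 and 3. The divergent columns are uniform in sign by the rule of the call. Saa2 and Saa1 are also above the typical mean in the compression arrays and below it in typical replicate 1.

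Hsd3b5, Elovl3 and Slco1a1, male-biased genes of mouse liver, were 3 of the 4 named genes with the lowest differences. Of 34 measured growth hormone responsive genes, which span both sexes' genes, 2 were called higher and 7 lower, and over the 28 with spread 11 differences were above 0 and 17 below, with a median of -0.05. Without replicate 3 there were 5 called higher and 9 lower, and without replicate 6, 3 and 6. Hsd3b5, a male-biased steroid reductase, was at 8.68, 6.85 and 8.33 in the divergent livers, against 11.14, 11.15, 10.32 and 10.98 in the typical livers. Its means of 7.95 ± 0.97 (SD, n = 3) and 10.90 ± 0.39 (SD, n = 4) differed by -2.95, and the compression livers were at 9.32 to 11.07. Every divergent value was below the compression range. Slco1a1, a male-biased uptake carrier of bile acids and steroid conjugates, was at 10.04, 6.78 and 9.63 against 11.34, 11.39, 11.07 and 11.33 (-2.46). Replicate 6 alone gave more than the other divergent livers here: without it the difference of Slco1a1 was -1.45. Elovl3, an elongase of very long chain fatty acids, was at 6.88, 5.40 and 6.26 against 9.25, 8.94, 8.60 and 7.80 (-2.47).

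Cyp2d9, a male-biased steroid hydroxylase, was at 11.13, 10.92 and 10.94 in the divergent livers, against 12.42, 12.18, 12.12 and 12.17 in the typical livers (-1.22), with the divergent values close together. Cyp7b1, which hydroxylates oxysterols, differed by -0.85, and the pheromone carriers Mup20 and Mup21 by -0.70 and -0.52. Without replicate 6 the difference of Mup21 was -0.32, short of the limit. Cyp4a12a, another male-biased hydroxylase, had a difference of -1.37 but overlapped, at 10.31, 8.50 and 9.002 against 10.996, 11.19, 10.004 and 10.39. The 2 members called higher are known to be female-biased in mouse liver: Cux2, a repressor, at 6.86, 7.27 and 7.08 against 6.43, 6.37, 6.66 and 6.40 (0.60), and Cyp2b10 at 7.86, 8.67 and 8.33 against 7.15, 7.32, 7.58 and 6.96 (1.04). In Cux2 the highest compression liver, 0.86 above the typical mean, exceeded all divergent livers. Of other female-biased genes of the list, named after their values were seen, A1bg was at 5.70, 6.20 and 5.91 against 5.52, 5.51, 5.54 and 5.52, Cyp2a4 at 11.07, 10.93 and 11.23 against 10.66, 10.59, 10.63 and 10.51 and Cyp2b9 at 8.36, 8.27 and 9.43 against 6.73, 7.46, 8.44 and 7.47. The first 2 of these did not overlap but differed by less than 0.5 (0.41 and 0.48), and Cyp2b9 overlapped (1.16). A1bg was dim, near the negative control median (5.814 in typical replicate 1). Female-biased members were not counted as a set, so these picks say nothing of the others. Genes of growth hormone reception and feedback, also named after their values were seen, were not called. Ghr, the receptor, was at 11.69, 11.58 and 11.77 against 11.93, 11.89, 11.78 and 11.82 (-0.18), with no overlap. Socs2, a feedback inhibitor, was at 7.45, 7.75 and 7.89 against 7.61, 7.45, 8.16 and 7.17 (0.10) and Cish, another one, at 6.66, 7.02 and 7.33 against 6.50, 7.68, 6.75 and 7.32 (-0.06). The typical livers spanned a wide range in Socs2 and Cish, and the hormone signal itself was not tested. Several members of the Mup and Cyp2 families are close paralogs whose probes may share transcripts.

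**Figure D4:**
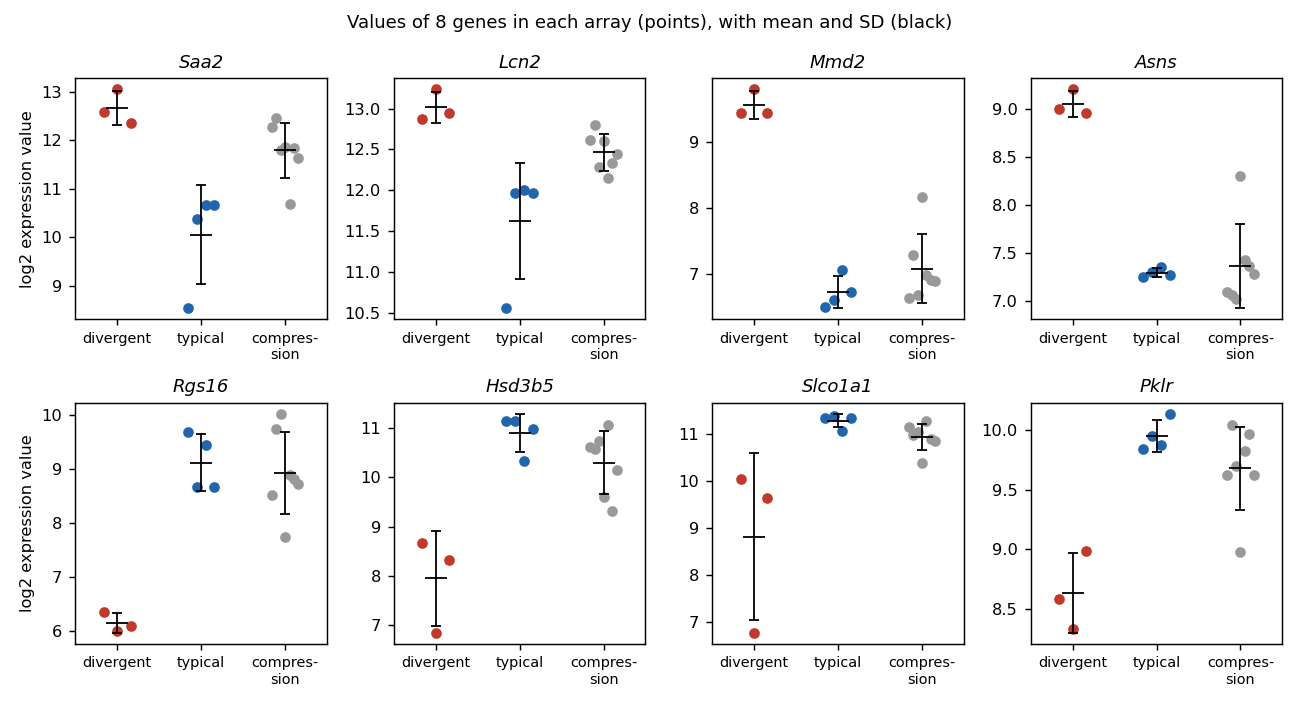
Log2 values of 8 genes in each array (points) with the mean and SD (black), divergent left, typical in the middle and compression right; the vertical axes differ. In Mmd2, Asns, Rgs16, Hsd3b5 and Slco1a1 the divergent livers lie outside both other sets, in Saa2 the compression livers reach into them, and in Pklr compression replicate 4 does.

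Glucose uptake, glycolysis and glycogen genes were lower as a list. Of 23 measured genes 14 had spread, 0 were called higher and 5 lower, and all 14 differences were below 0, with a median of -0.46 against -0.01 over all probe sets with spread. Slc2a2, through which glucose enters and leaves hepatocytes, was at 11.55, 10.45 and 11.87 in the divergent livers, against 12.53, 12.62, 12.51 and 12.60 in the typical livers (-1.27). Pklr, the pyruvate kinase of liver, was at 8.58, 8.33 and 8.99 against 9.84, 9.95, 9.87 and 10.13 (-1.31). The typical livers were tight in both genes, and the divergent livers were all lower, most so replicate 6. Ppp1r3c, which targets protein phosphatase to glycogen, was at 7.88, 7.65 and 7.95 against 8.79, 8.86, 8.48 and 8.39 (-0.80), and Pfkfb3, which makes the activator of phosphofructokinase, at 7.71, 7.41 and 7.45 against 8.51, 8.38, 8.22 and 7.98 (-0.75). Khk, the kinase that traps fructose, was at 10.14, 10.17 and 10.38 against 10.67, 10.75, 10.81 and 10.74 (-0.51), and fell short of the limit without replicate 3 (-0.47), 6 (-0.48) or 4 (-0.49). Without replicate 7, 8 members of the list were called lower. Gys2, the glycogen synthase of liver, was not called, at 9.38, 8.92 and 9.52 against 9.95, 9.67, 9.60 and 9.70 (-0.45), nor was Ugp2, which makes UDP-glucose, at 10.43, 10.02 and 10.57 against 10.97, 10.85, 10.72 and 10.76 (-0.49). Both differed without overlap but by less than 0.5. Aldoc, an aldolase outside the list, was at 8.004, 7.31 and 8.40 against 8.64, 8.89, 9.14 and 8.99 (-1.01), and Tkfc, which phosphorylates glyceraldehyde from fructose, at 9.05, 9.04 and 9.35 against 9.74, 9.73, 9.82 and 9.94 (-0.66).

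Rgs16, which shortens G protein signals and is known in liver as a glucose-responsive gene, was the named gene with the lowest difference. It was at 6.34, 5.99 and 6.09 in the divergent livers, against 9.69, 8.66, 9.44 and 8.67 in the typical livers, with means of 6.14 ± 0.18 (SD, n = 3) and 9.11 ± 0.53 (SD, n = 4) and a difference of -2.97. The divergent values were close to each other and below every other array, and the compression livers spread over 7.73 to 10.03. Of 30 measured genes of gluconeogenesis and fasting, on which Rgs16 was placed, 14 had spread, 1 was called higher and 3 lower, and the median was 0.01. The other 2 called lower were Lpin1 (-1.23), a phosphatidate phosphatase, and Slc37a4 (-0.56), the glucose 6-phosphate carrier of the endoplasmic reticulum. Called higher was the transaminase Got1 (0.60), whose divergent values lay within the compression range of 11.23 to 12.07. The gluconeogenic enzymes themselves were close: Pck1 was at 12.52, 12.50 and 12.50 against 12.55, 12.52, 12.52 and 12.49 and G6pc at 11.65, 11.69 and 11.57 against 11.79, 11.68, 12.07 and 11.22. Igfbp1, a fasting- and glucocorticoid-induced gene, was at 10.41, 10.32 and 9.99 against 9.41, 9.44, 10.62 and 8.67. Its difference of 0.70 was the highest of the list, but it overlapped, since typical replicate 4 was above every divergent value. Without typical replicate 4, 3 members of the list were called higher.

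Promoters of the called genes were searched on both strands for 6 short motifs, in the window of RefSeq (GRCm38.p6) that runs from 250 bases before to 50 bases after each start. The E-box CACGTG was found in 14 of 103 promoters of genes called lower (13.6%), 6 of 95 of genes called higher (6.32%), 88 of 952 of the other genes with spread (9.24%) and 2349 of all 32851 promoters (7.15%). The STAT element TTCNNNGAA was found in 7 of 95 promoters of higher genes (7.37%) and 7 of 103 of lower genes (6.80%). It was in 7.98% of promoters of the other genes with spread and 8.30% of all. In the same order, the D-box TTATGCAA was found in 4 of 95 (4.21%) and 4 of 103 (3.88%), against 1.16% and 0.743%. Its form TTATGTAA was in 2 of 95 (2.11%) and 2 of 103 (1.94%), against 0.840% and 0.938%. The cyclic AMP element TGACGTCA was found in 2 of 95 (2.11%) and 1 of 103 (0.971%), against 1.89% and 1.79%. The ATF4 element TGATGNAAT was in 2 of 95 (2.11%) and 0 of 103, against 0.840% and 0.965%. No motif contains another, and each promoter printed here holds 1 of the 6. A match is a run of letters and is not a binding site, and a promoter without it says nothing of a factor. The 95 promoters belong to 73 matched higher genes and the 103 to 71 matched lower genes. The 2 promoters printed first belong to glucose genes that were lower and hold the E-box (capitals), and the next 2 to acute phase genes that were higher and hold the STAT element (capitals), each 5′ to 3′ on the strand of its gene. Khk lies on the plus strand (chr5:30921309-30921608), and Ppp1r3c (chr19:36736555-36736854), Apcs (chr1:172895005-172895304) and Hamp (chr7:30943980-30944279) lie on the minus strand.
Khk: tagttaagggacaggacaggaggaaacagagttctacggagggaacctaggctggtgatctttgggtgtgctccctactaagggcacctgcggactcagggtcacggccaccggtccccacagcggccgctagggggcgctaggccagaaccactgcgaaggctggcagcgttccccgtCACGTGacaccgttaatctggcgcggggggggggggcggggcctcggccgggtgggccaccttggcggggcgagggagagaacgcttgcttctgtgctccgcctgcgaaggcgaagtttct
Ppp1r3c: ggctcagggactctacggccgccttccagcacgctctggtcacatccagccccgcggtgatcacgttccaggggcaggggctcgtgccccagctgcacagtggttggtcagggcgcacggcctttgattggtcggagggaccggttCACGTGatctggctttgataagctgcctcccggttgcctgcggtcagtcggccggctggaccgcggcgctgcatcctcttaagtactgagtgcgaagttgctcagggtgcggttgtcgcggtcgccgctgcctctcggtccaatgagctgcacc
Apcs: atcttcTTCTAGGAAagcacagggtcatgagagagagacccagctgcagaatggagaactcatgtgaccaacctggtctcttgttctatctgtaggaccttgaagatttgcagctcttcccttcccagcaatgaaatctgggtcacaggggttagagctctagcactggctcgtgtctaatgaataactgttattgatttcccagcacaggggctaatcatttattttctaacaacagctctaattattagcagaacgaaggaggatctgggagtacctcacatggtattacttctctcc
Hamp: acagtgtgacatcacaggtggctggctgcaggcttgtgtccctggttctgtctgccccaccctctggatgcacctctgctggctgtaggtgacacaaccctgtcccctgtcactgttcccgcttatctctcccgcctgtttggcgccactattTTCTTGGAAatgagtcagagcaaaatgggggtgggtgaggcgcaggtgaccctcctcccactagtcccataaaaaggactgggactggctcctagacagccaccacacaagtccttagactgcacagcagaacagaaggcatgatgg

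Fatty acid synthesis genes divided. Of 18 measured genes of synthesis, elongation and desaturation 15 had spread, 0 were called higher and 3 lower, with a median of -0.03. Beside Elovl3 these were Me1, the malic enzyme that supplies NADPH, at 8.28, 8.44 and 8.99 in the divergent livers, against 9.88, 9.80, 9.74 and 9.55 in the typical livers (-1.17), and Thrsp, a lipogenic regulator, at 10.93, 10.91 and 11.14 against 11.28, 11.67, 11.94 and 11.54 (-0.62). The divergent values of Thrsp lay within the compression range of 10.52 to 11.99. The core enzymes were not called: Fasn was at 9.40, 9.73 and 10.14 against 9.64, 9.88, 10.37 and 10.50, Acaca at 8.45, 8.64 and 8.82 against 8.59, 8.63, 9.001 and 8.86 and Scd1 at 12.72, 12.94 and 13.01 against 12.91, 12.85, 12.96 and 12.85. All 3 overlapped between the sets. Acly, which makes cytosolic acetyl-CoA, was above every typical value, at 10.09, 10.29 and 10.51 against 9.56, 9.83, 10.01 and 9.93 (0.47).

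Cholesterol synthesis genes had low values in 2 of the divergent livers. All 20 measured genes had spread, 0 were called in either direction, 18 of 20 differences were below 0 and the median was -0.39. Hmgcs1, which makes the precursor of mevalonate, was at 10.21, 9.34 and 11.06 in the divergent livers, against 10.44, 10.85, 11.40 and 11.39 in the typical livers, and Cyp51, the lanosterol demethylase, at 9.06, 8.43 and 9.64 against 9.46, 9.75, 10.23 and 9.99. Replicate 6 was the lowest of the no-compression arrays in both genes, while replicate 7 was inside the typical range. Without replicate 7, 10 of the 20 were called lower, and without typical replicate 1, 6 were. The list's median deviation from the typical mean was -0.40, -0.66 and -0.05 in the divergent livers 3, 6 and 7, between -0.32 and 0.25 in the typical livers and between -0.52 and 0.50 in the compression livers. Insig1, which holds back the SREBP proteins, was at 10.89, 10.89 and 11.42 against 10.91, 11.18, 11.30 and 11.27, and Sc5d, a late enzyme of the pathway, at 11.99, 11.95 and 12.38 against 12.14, 12.14, 12.27 and 12.31.

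Genes of fatty acid oxidation were on the lower side. Of 31 measured peroxisomal genes and PPARA targets 23 had spread, 1 was called higher and 5 lower, and 22 of 23 differences were below 0, with a median of -0.37. Angptl4, an inhibitor of lipoprotein lipase, was at 9.45, 9.24 and 9.43 in the divergent livers, against 10.49, 10.23, 10.43 and 9.86 in the typical livers (-0.88), and all 3 divergent values were below the compression range of 10.16 to 10.45. Vnn1, which splits pantetheine, was at 6.80, 6.79 and 7.05 against 7.86, 7.61, 7.61 and 7.47 (-0.75), Aldh3a2, a dehydrogenase of fatty aldehydes, at 9.91, 9.36 and 9.84 against 10.71, 10.46, 10.36 and 10.29 (-0.75) and Acot1, an acyl-CoA thioesterase, at 6.91, 6.76 and 6.86 against 7.77, 7.42, 7.47 and 6.95 (-0.56). The thiolase Acaa1b differed by -0.54. Without replicate 6 Acaa1b (-0.41) was not called, and without typical replicate 1 neither Acaa1b (-0.45) nor Acot1 (-0.43) was, while 8 were called lower without replicate 3 or 5. Abcd2, a peroxisomal carrier of very long chain acyl-CoA, was the member called higher, at 7.32, 7.45 and 7.89 against 7.04, 6.75, 6.99 and 7.02 (0.61), though not without replicate 7 (0.44). Ppara itself was at 9.96, 9.52 and 9.95 against 10.30, 10.17, 10.07 and 10.20 (-0.37), with no overlap. Among 19 measured genes of mitochondrial oxidation and ketone bodies 11 had spread, all below 0 with a median of -0.17, and 1 was called: Bdh1, which makes 3-hydroxybutyrate, at 9.70, 8.83 and 9.84 against 10.37, 10.15, 10.05 and 10.20 (-0.74). Without replicate 6 Bdh1 differed by -0.43 and 0 were called. Cpt1a, the gate of fatty acids into mitochondria, was at 10.80, 10.48 and 10.70 against 10.998, 10.90, 10.74 and 10.78 (-0.20), with overlap.

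Lipases and esterases of stored lipid were lower too. Of 28 measured genes of lipid droplets and neutral lipases 15 had spread, 0 were called higher and 3 lower, and 14 of 15 were below 0 with a median of -0.24. Mgll, the monoacylglycerol lipase, was at 8.40, 8.32 and 8.46 in the divergent livers, against 9.29, 9.41, 9.24 and 9.12 in the typical livers (-0.87). The carboxylesterases Ces1g and Ces2e were at 9.33, 8.52 and 9.99 against 10.17, 10.42, 10.25 and 10.20 (-0.98) and at 8.57, 8.22 and 9.41 against 9.64, 9.74, 9.93 and 9.51 (-0.97). In these esterases replicate 7 was nearest to the typical livers, and without replicate 6 the difference of Ces1g was -0.60. Plasma lipoprotein genes had 9 members with spread of 23 measured, 0 called higher and 1 lower (Angptl4), with a median of 0.01. Phospholipid and acylglycerol synthesis had 9 with spread of 31 measured. Called higher were Gpat4 (0.55), a glycerol phosphate acyltransferase, and Etnppl (0.67), a lyase of phosphoethanolamine, and called lower was Lpin1, at 9.95, 8.81 and 9.70 against 10.89, 10.87, 11.11 and 9.98. Gpat4 was not called without typical replicate 5 (0.46). The divergent values of Etnppl lay within the compression range of 10.42 to 11.72. In Lpin1 the highest divergent value and the lowest typical value, of replicate 5, were close. Cd36, a fatty acid scavenger receptor outside these lists, was at 8.18, 8.18 and 8.28 against 7.45, 7.55, 7.15 and 7.28 (0.86).

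The lists of bile acid enzymes and of bile salt transport had 2 called members each, all lower. Over all probe sets with spread 8.00% were called lower. Of 15 measured enzymes 13 had spread, 0 were called higher and 2 lower, with a median of -0.15: Cyp7b1, at 10.54, 9.73 and 9.94 in the divergent livers against 11.03, 11.19, 10.76 and 10.70 in the typical livers, and Cyp27a1, which opens the alternative pathway, at 10.997, 10.72 and 10.98 against 11.49, 11.49, 11.58 and 11.33 (-0.57), short of the limit without replicate 6 (-0.48). Cyp8b1, the sterol 12-alpha-hydroxylase, had a difference of -1.60 but overlapped, since it was at 8.62, 6.25 and 8.19 against 9.73, 9.71, 8.22 and 9.47 and typical replicate 4 was low. Cyp7a1, the rate-limiting enzyme of the classic pathway, was at 11.47, 10.97 and 11.85 against 11.63, 11.41, 11.56 and 11.57 (-0.11). Of 19 measured genes of bile salt transport and the FXR axis 14 had spread, and the 2 called, both lower, were Slco1a1 and Slco1b2, at 10.94, 10.72 and 10.94 against 11.46, 11.41, 11.30 and 11.31. Slco1b2 lay just inside the limit (-0.50), and was not called without replicate 6 (-0.43), 1 (-0.47) or 2 (-0.49). Without replicate 6 Slco1a1 differed by -1.45. Slc10a1, the sodium-dependent uptake carrier, was at 12.04, 11.98 and 12.12 against 12.36, 12.35, 12.28 and 12.31 (-0.28) with no overlap, while Slc10a2, a bile acid carrier best known from ileum and outside the list, was called higher, at 8.95, 9.15 and 9.16 against 8.09, 7.99, 8.30 and 7.87 (1.03).

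Cytochromes P450 of families 1 to 3 divided. Among 44 measured genes 32 had spread, 13 above 0 and 19 below with a median of -0.15, and 1 was called higher (Cyp2b10) and 6 lower. Without typical replicate 1, 5 were called higher and 6 lower. Beside Cyp2d9 the largest were Cyp2c54 (-0.997), Cyp2c37 (-0.91) and Cyp2c50 (-0.88), with Cyp2c37 at 10.50, 10.22 and 10.48 in the divergent livers, against 11.33, 11.30, 11.40 and 11.20 in the typical livers. Cyp1a2, which oxidizes caffeine and other planar amines, differed by -0.68, and Cyp2d13 was the other called gene. Nr1i3, the receptor CAR that drives Cyp2b and Cyp2c genes, was at 9.76, 9.63 and 9.97 against 10.74, 10.73, 10.85 and 10.76 (-0.98), below the compression range of 10.54 to 10.98 in all 3 divergent livers. Its target Cyp2b10 was higher in the same livers, of which replicate 3 lay within the compression range of 6.997 to 7.98. Of 30 measured nuclear receptors 8 had spread, and Nr1i3 was the 1 called. Among 46 measured conjugation enzymes 29 had spread, 5 above 0 and 24 below, 2 were called higher (Sult1e1 and Gsta2, 0.61) and 3 lower. The divergent values of Gsta2 lay within the compression range of 8.59 to 10.16. The lower ones were Sult2a8, a bile acid sulfotransferase, at 11.73, 10.02 and 11.62 against 12.38, 12.38, 12.21 and 12.38 (-1.22), and the glutathione transferases Gstt2 (-0.68) and Gstt1 (-0.56). Without replicate 6 the difference of Sult2a8 was -0.66, and Gstt1 (-0.43) was not called.

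Carriers of drugs and anions had 1 gene called higher, the monocarboxylate carrier Slc16a5 (0.98), and 5 lower, of 39 measured and 19 with spread. Slc22a7, an organic anion carrier, was at 8.02, 7.70 and 8.39 in the divergent livers, against 8.77, 9.34, 9.61 and 9.26 in the typical livers (-1.21), and typical replicate 1 was the nearest to the divergent livers. Abca8a (-0.65) and the xenobiotic pump Abcg2 (-0.57) were the others beside Slco1a1 and Slco1b2. Without replicate 6 the difference of Slc22a7 was -1.04 and that of Slco1a1 -1.45, and neither Abca8a (-0.40) nor Slco1b2 (-0.43) was called. Slco1b2 was not called without typical replicate 1 (-0.47) or 2 (-0.49) either.

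Zonation lists pointed in opposite directions. Of 26 measured genes of pericentral hepatocytes, those around the central vein, 16 had spread, 4 above 0 and 12 below, 0 were called higher and 6 lower, and the median was -0.25. They were Nr1i3, Cyp2c37, Cyp2c50, Cyp1a2, Cyp27a1 and Gulo (-0.52), which in mice makes ascorbate. Without replicate 6 Cyp27a1 (-0.48) and Gulo (-0.41) were not called. The pericentral marker Cyp2e1 was at 12.91, 12.85 and 12.77 in the divergent livers, against 13.05, 13.04, 13.02 and 13.01 in the typical livers (-0.18), and Oat, an ornithine transaminase of the same zone, was on the other side at 11.39, 11.28 and 11.43 against 11.19, 11.22, 11.15 and 11.07 (0.21). Of 44 measured periportal and amino acid breakdown genes 25 had spread, 16 above 0 and 9 below, 5 were called higher and 0 lower, with a median of 0.20. Ddc, which makes biogenic amines, was at 9.24, 9.60 and 9.54 against 8.56, 8.52, 8.84 and 8.33 (0.90), Aass, of lysine breakdown, at 11.88, 11.93 and 11.69 against 11.12, 11.32, 11.34 and 11.08 (0.62) and Agxt, a peroxisomal transaminase, at 10.16, 10.06 and 10.22 against 9.63, 9.62, 9.52 and 9.67 (0.54). Etnppl and Got1 were the others, and Agxt was not called without replicate 7 (0.497). Arg1, the arginase of the urea cycle, was at 11.69, 11.78 and 11.56 against 11.30, 11.26, 11.36 and 11.31 (0.37) with no overlap, and Cyp2f2, the cytochrome that marks the periportal zone, at 12.53, 12.39 and 12.60 against 12.74, 12.83, 12.78 and 12.72 (-0.26), on the lower side. The pericentral list shares 5 of its 6 called genes with the lists of P450s, bile acid enzymes or nuclear receptors, so these counts are not independent.

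Asns, the asparagine synthetase and a target of the amino acid stress factor ATF4, was at 9.01, 9.21 and 8.96 in the divergent livers, against 7.25, 7.30, 7.35 and 7.27 in the typical livers (1.77). The typical livers were close together, and in the compression livers Asns was at 7.02 to 8.30, with replicate 4 the highest. It was the 1 called of 28 measured genes of ATF4 and amino acid stress, of which 6 had spread. Cth, a cystathionine lyase, was at 11.95, 11.96 and 11.92 against 11.26, 11.51, 11.67 and 11.47 (0.47), and Ddit4, which restrains mTORC1, at 8.08, 8.13 and 7.83 against 7.98, 8.09, 8.28 and 7.48 (0.06). Atf5, a related factor outside the list, differed by 0.53, and was short of the limit without replicate 3 (0.47), 6 (0.47) or 2 (0.49).

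Stress and growth lists were on the higher side in part. Of 24 measured heat shock proteins 7 had spread, with Hspb8 called higher (0.60) and Hspb6 lower (-0.82), both small chaperones. Endoplasmic reticulum chaperones had 18 members with spread of 29 measured, 16 above 0, 0 called and a median of 0.12, with Hspa5 at 12.26, 12.19 and 12.11 in the divergent livers against 11.90, 12.30, 12.09 and 12.07 in the typical livers. Among 23 measured antioxidant and NRF2 targets, Hmox1, the heme oxygenase, was called higher at 9.05, 9.42 and 9.25 against 8.18, 8.55, 8.46 and 8.53 (0.81), beside Gsta2. Of 24 measured glucocorticoid-induced genes 18 had spread, 2 were called higher (Sult1e1 and Lcn2) and 2 lower (Angptl4 and Zbtb16, -0.53). Zbtb16 was not called without replicate 7 (-0.39), 2 (-0.49) or 4 (-0.48). Other glucocorticoid targets, such as Fkbp5 at 9.75, 9.81 and 9.38 against 10.02, 9.75, 10.13 and 9.35 and Tsc22d3 at 9.79, 9.56 and 9.58 against 9.87, 9.87, 9.98 and 9.32, overlapped.

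Cytoskeletal genes, of which 13 of 40 measured had spread, were all 13 above 0, with a median of 0.29. Called higher were Tuba8, an alpha tubulin, at 8.67, 9.09 and 8.69 in the divergent livers, against 7.62, 7.63, 7.65 and 7.49 in the typical livers (1.22), and Raph1 (0.57), which binds actin regulators. Tuba1c was at 10.91, 10.98 and 10.94 against 10.36, 10.49, 10.56 and 10.59 (0.44) and the keratin Krt18 at 9.08, 9.08 and 9.28 against 8.71, 8.79, 8.79 and 8.93 (0.35), both without overlap. Cell cycle and growth genes had 9 members with spread of 32 measured, all 9 above 0, and 2 called higher: Plk3, a kinase of the stress response, at 10.02, 9.99 and 10.03 against 8.83, 8.83, 9.20 and 8.86 (1.09), and Btg2, an antiproliferative gene, at 7.92, 7.77 and 7.83 against 6.80, 6.85, 6.98 and 7.01 (0.93). The divergent values of Plk3 were nearly equal and lay within the compression range of 8.85 to 10.09. Btg2 was also the 1 called of 32 measured immediate early genes, while Egr1 overlapped at 8.18, 8.06 and 9.03 against 7.83, 7.12, 8.84 and 8.15. Mki67, which marks dividing cells, was highest in replicate 7, at 6.61, 5.87 and 7.68 against 6.10, 6.33, 6.50 and 5.98.

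Tryptophan breakdown and NAD genes had 2 called higher and 0 lower of 22 measured and 12 with spread. Acmsd, which steers tryptophan away from NAD, was at 10.55, 10.79 and 10.35 in the divergent livers, against 8.79, 9.47, 9.60 and 9.16 in the typical livers (1.31), and Nnmt, which methylates nicotinamide, at 11.57, 11.70 and 11.29 against 10.13, 10.45, 10.48 and 10.35 (1.17). The first enzyme, Tdo2, was at 12.32, 12.30 and 12.29 against 12.33, 12.25, 12.29 and 12.22 (0.03). Of 20 measured clock genes 7 had spread and 0 were called, with Dbp, an output of the clock, at 11.84, 11.22 and 11.96 against 11.89, 11.81, 11.55 and 11.99 and Nr1d1, a repressor within it, at 9.12, 9.09 and 9.72 against 9.60, 8.97, 8.83 and 9.89. Usp2, a deubiquitinase with a daily rhythm, had the lowest difference of that list (-0.42, 9.31, 9.07 and 9.32 against 9.75, 9.75, 9.70 and 9.44). Core mitochondrial metabolism had 6 members with spread of 21, of which Pdk1, a kinase that shuts down pyruvate dehydrogenase, was called lower at 7.74, 7.59 and 8.34 against 8.81, 8.89, 8.81 and 8.82 (-0.94). In serpins, coagulation and complement 20 of 47 measured had spread. Serpina10 (0.90) and the anticoagulant Pros1 (0.51) were called higher and Serpina12 (-0.57) lower, Pros1 not without typical replicate 1 (0.49). A list of Mmd2, Tff3 and secreted regulators of liver, drawn up with values known, had 14 of 29 with spread, 8 above 0 and 6 below with a median of 0.08. Called higher were Mmd2 (2.85), Tff3 (1.76), Hamp (0.54) and Orm1 (0.54), and called lower Igfbp2 (-0.75), an IGF binding protein, the growth factor Fgf1 (-0.53) and Angptl4 (-0.88). Without replicate 6 Hamp (0.43) and Orm1 (0.41) were not called, nor was Orm1 without replicate 1 (0.47), nor Fgf1 without replicate 3 (-0.49), 7 (-0.47) or 4 (-0.49). Dio1, which activates thyroid hormone and is on none of the lists, was at 8.50, 8.55 and 8.44 against 9.54, 9.48, 9.44 and 9.39 (-0.97). Ribosomal and translation genes and oxidative phosphorylation had 2 and 1 members with spread and 0 called, with Eef1a1, the elongation factor, at a mean of 12.7 and no spread.

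**Figure D5:**
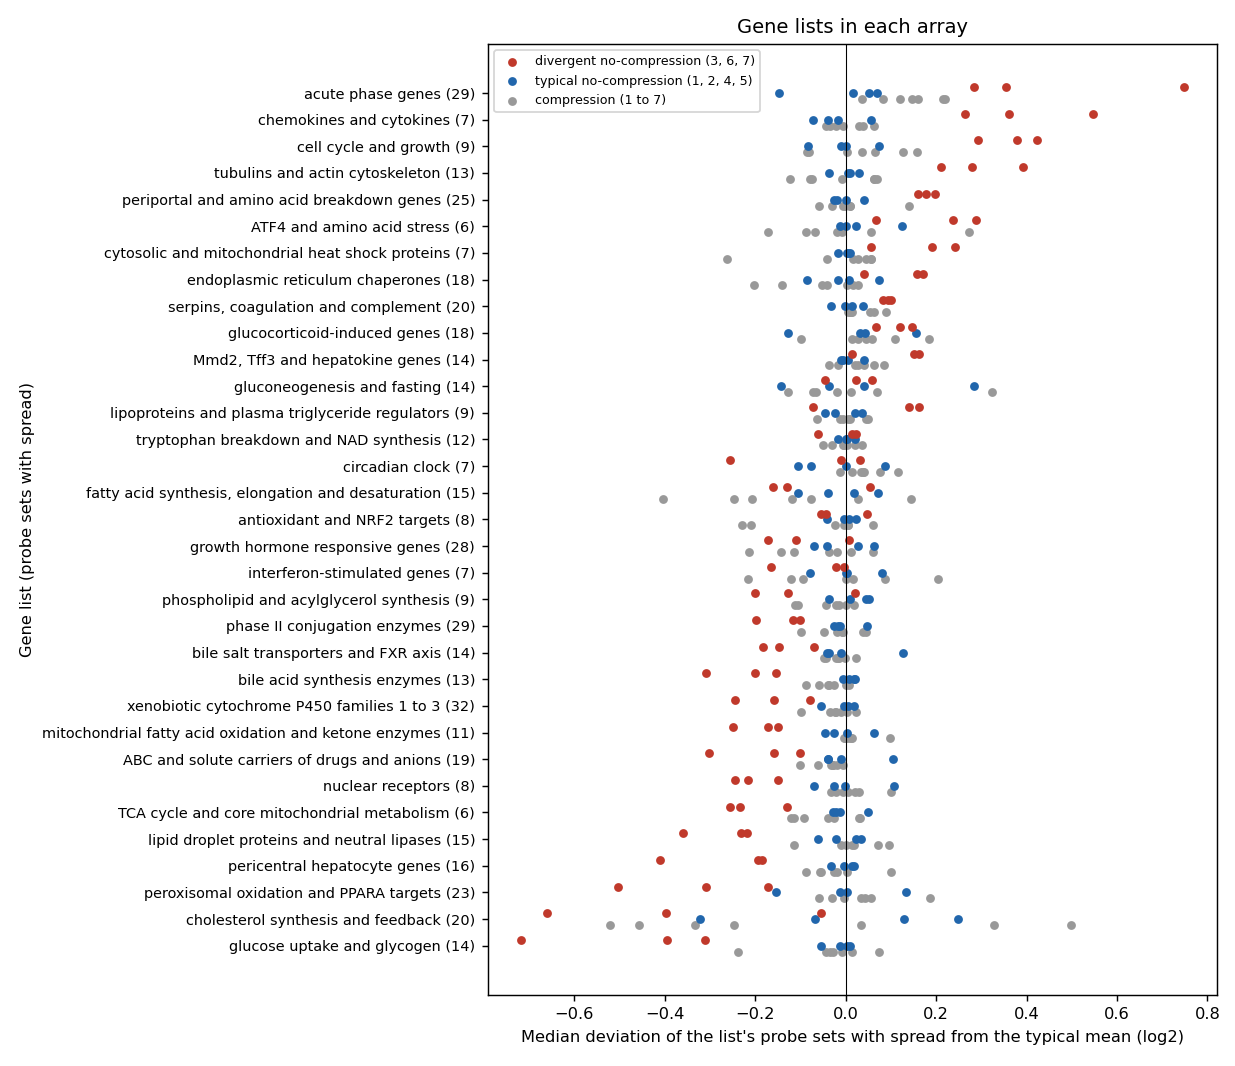
Median log2 deviation from the typical mean over the probe sets with spread of each gene list (number in parentheses) in each array, for the lists with 6 or more such probe sets; points of the divergent arrays lie above those of the typical and compression arrays within a list. Acute phase genes lie right of 0 in the divergent livers (0.35, 0.75 and 0.28 in replicates 3, 6 and 7) and glucose uptake and glycogen genes left of it (-0.39, -0.72 and -0.31).

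In the called probe sets the 3 divergent livers share direction by the rule of the call, but they differed in size. Replicate 6 was the highest of the 3 in 68 of the 98 higher probe sets and the lowest in 83 of the 99 lower ones, against 9 and 7 for replicate 3 and 21 and 9 for replicate 7. The median deviation from the typical mean over the higher probe sets was 0.75, 0.97 and 0.78 in replicates 3, 6 and 7, and over the lower ones -0.67, -0.96 and -0.56. With replicate 6 left out, 90 probe sets were called higher and 75 lower, of which 82 and 70 were among those called with it. The other replicates, left out in turn, cost between 0 and 7 of the higher and between 2 and 10 of the lower calls. Car3, a carbonic anhydrase abundant in liver and adipose tissue, showed the unevenness, at 10.47, 8.87 and 11.15 against 11.95, 11.62, 11.24 and 11.39 (-1.38), with replicate 7 next to the typical livers and a difference of -0.74 without replicate 6. It is also the 1 adipocyte marker with spread. Replicate 7 was the highest in Slc22a26 and Marco, and Obp2a, a lipocalin that binds small hydrophobic molecules, was about equally low in all 3, at 5.64, 5.74 and 5.53 against 7.58, 7.46, 7.86 and 6.69 (-1.76). In Plk3, Asns and Dio1 (8.50, 8.55 and 8.44) the 3 livers were also close together.

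Of the remaining genes with the lowest differences, Nxpe2, of the neurexophilin and esterase domain family, was at 6.84, 6.45 and 7.10 in the divergent livers, against 8.17, 8.25, 8.29 and 8.39 in the typical livers (-1.47). Susd4, a complement regulator, was at 8.63, 7.81 and 8.54 against 9.60, 9.63, 9.53 and 9.45 (-1.23), and Arrdc3, an arrestin-like adaptor, at 7.23, 7.33 and 7.85 against 8.90, 8.65, 7.87 and 9.35 (-1.23), where typical replicate 4 nearly met the divergent livers. Among the called probe sets 6 higher and 9 lower had no gene name. They include TC0900001232.mm.2, with a difference of 1.47, and TC0300002551.mm.2, with -1.94.

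Further called genes were on none of the lists. Nrg4, an EGF family ligand, was at 10.31, 10.77 and 10.36 in the divergent livers, against 9.15, 9.29, 9.26 and 9.04 in the typical livers (1.29), and Sdc1, a heparan sulfate proteoglycan of hepatocytes, at 11.31, 11.66 and 11.41 against 10.40, 10.45, 10.59 and 10.45 (0.99). Hcar2, the receptor for nicotinic acid and 3-hydroxybutyrate, was at 7.04, 7.01 and 6.85 against 5.95, 5.99, 6.04 and 5.93 (0.98). In all 3 genes the divergent values exceeded every typical and every compression value. Mpeg1, a pore-forming protein of macrophages, was at 8.83, 8.96 and 8.78 against 7.83, 7.96, 7.86 and 8.10 (0.92), and Gas6, a ligand of receptors that clear dying cells, at 7.82, 8.48 and 8.28 against 7.28, 7.30, 7.44 and 7.59 (0.79). Other genes called higher were the lysosomal protease Ctsl (0.75), the transglutaminase Tgm2 (0.70) and the interleukin 13 receptor chain Il13ra1 (0.59).

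On the lower side of these genes, Car1, a carbonic anhydrase best known from red cells, was at 6.91, 6.41 and 7.11 in the divergent livers, against 8.63, 7.92, 7.63 and 7.86 in the typical livers (-1.20). Alas2, the heme synthesis enzyme of red cell precursors and the 1 erythroid marker with spread, was at 8.94, 8.58 and 8.79 against 9.10, 9.24, 8.88 and 9.11 (-0.31), with overlap. Mme, the peptidase neprilysin, was at 6.74, 5.89 and 6.89 against 7.78, 7.62, 7.76 and 7.46 (-1.14), Retsat, which saturates retinol, at 8.61, 8.58 and 8.94 against 10.16, 9.67, 9.60 and 9.55 (-1.04) and Nox4, which makes hydrogen peroxide, at 8.12, 7.41 and 7.81 against 8.93, 8.76, 8.58 and 8.71 (-0.97). The divergent values of all 3 were below the compression range, with replicate 6 the lowest. The aquaporin Aqp8 (-0.85), the zinc importer Slc39a4 (-0.83), the transcriptional regulator Cited2 (-0.70) and the glycolate oxidase Hao1 (-0.59) were also called lower, Hao1 not without replicate 6 (-0.47). Dcn, the 1 marker of stellate cells and fibroblasts with spread, was at 10.55, 10.53 and 10.63 against 10.61, 10.56, 10.64 and 10.61 (-0.04), with overlap.

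Compression replicate 4 was the compression array nearest to the divergent livers. It had the highest compression value in 58 of the 98 higher probe sets and the lowest in 57 of the 99 lower ones. Its value passed the middle between the typical and divergent means in 45 of the higher and 28 of the lower probe sets, and it reached into the divergent values in 17 and 20. In Mmd2 it was at 8.17 and in Asns at 8.30, above all other compression livers. Among the typical livers replicate 1 was the farthest from the divergent livers in 52 of the higher and 47 of the lower probe sets.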

How the data were processed

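Total RNA (200 ng) of 14 mouse livers, 7 with the loaded clothes and 7 without a load, was hybridized to Clariom S arrays, 1 per liver. The authors deposited values per probe set made with qFarms, quantile normalization followed by a factor-analysis summary that keeps the signal shared by the probes, with R 3.4.4 per the submitters' processing notes. That the deposited values are log2 follows from this method and their range, since the table does not state its scale. No scanner values were used, so that background and normalization could not be redone.

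From the deposited log2 values, 6923 control rows were left out and 22206 probe sets kept, of which 2634 had no single gene name in the platform annotation. Components were taken over probe sets with an SD above 0.01. No-compression arrays were divided by their position on the first component, differences were divergent mean minus typical mean, and a call needed at least 0.5 with no overlap. No test was run, since these values chose the arrays. The calculation was run on simulated data with large built-in shifts and little noise. This shows that the code recovers such shifts and says nothing of differences near the limit. Members and gene lists were chosen with earlier results of these data known.

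Named genes were the 15 highest and 15 lowest called, up to 4 called members of each list, up to 2 members by mean of a list without calls, and the member with the highest mean of a cell type list. Genes named beyond this rule were picked with their values in view (chosen after seeing the data). The labels pair no livers and give neither scan nor extraction batches. Whether the livers of a group came from separate cages or runs is not given in the sources used here. Alternatives were other scalings, limits, a filter on dim probe sets, medians in place of means, other component settings and each array left out. Python 3.11.15, numpy 2.4.6, pandas 2.3.3 and matplotlib 3.10.9 were used.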

Additional observations from a re-analysis of the deposited data

Results flagged for a closer look

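Among 285 groups of values (3 groups of arrays for 95 named genes or component positions), 26 held an array whose gap to its neighbour was a larger share of the range of its group than Dixon's 95% critical value, which served here only as a limit for listing. In groups not chosen on their values chance alone marks about 1 in 20, but these genes and arrays were chosen on the same values, so that rate does not apply and the list carries no error rate. No explanation was tested.

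Compression replicate 4 was the array marked most often, 12 times, each time on the side of the divergent livers. It was at 8.17 in Mmd2, 8.30 in Asns, 7.15 in Bmper, 11.72 in Etnppl, 7.73 in Btg2, 11.74 in Aass and 10.16 in Gsta2, above the other compression livers. It was at 7.64 in Nxpe2, 8.98 in Pklr, 12.22 in Slc2a2 and 6.77 in Serpina12, below them, and at 2.25 on the first component. Compression replicate 3 was at 9.97 in Aldh3a2 and 8.65 in Abca8a, and compression replicate 5 at 8.69 in Zbtb16, each below the rest of its group.

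Among all 7 no-compression livers, divergent replicate 6 was apart in Slco1a1, at 6.78, and Sult2a8, at 10.02. Within the 4 typical livers, replicate 1 was the lowest in 3 acute phase genes, at 8.53 in Saa2, 9.02 in Saa1 and 10.55 in Lcn2, and in Cyp2c54, at 11.22. Typical replicate 2 was at 6.75 in Abcd2, the lowest, and at 8.89 in Pdk1, the highest. Typical replicate 4 was at 12.21 in Sult2a8, the lowest, and at 9.20 in Plk3, the highest, and typical replicate 5 was the lowest in Zbtb16, at 9.18.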

How the results depend on the processing

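The counts of 98 probe sets higher and 99 lower in the divergent livers, and of 138 of these with all divergent values outside the compression range, depended mainly on the limit. A limit of 0.25 gave 202, 237 and 298, and a limit of 1 gave 33, 22 and 46. Other settings stayed within 1.5 times of these counts: quantile normalization, median centring, medians in place of means, dim probe sets left out and overlap allowed gave 92 to 111 higher and 89 to 116 lower. With each no-compression replicate left out in turn, 90 to 120 were higher, 75 to 140 lower and 120 to 198 outside the range, with the fewest in each without replicate 6. With compression replicate 4 left out of the range, an alternative chosen after seeing the data, 161 were outside it. The same 3 arrays stood apart in all 4 alternative component settings. Of the 94 named genes with spread, those called kept their sign in every setting run on single genes, and Dbp, which was not called, changed it (-0.14, and 0.09 without replicate 6). Without replicate 6, 16 of the higher and 29 of the lower calls were lost. List medians changed sign for 6 lists close to 0, among them the growth hormone responsive genes (-0.05, and 0.0008 without replicate 6), so that only their single genes are described by direction. No paired analysis was possible because the labels pair no livers. Probe sets without spread limit what can be seen, and 7 arrays limit precision.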
